A study of Mus musculus with 12 samples.

Results

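The genes described here take up fatty acids in adipose tissue. They were 9 listed genes of lipoprotein lipolysis and fatty acid uptake (Lpl, Gpihbp1, Angptl4, Vldlr, Cd36, Slc27a1, Acsl1, Fabp4 and Fabp5), matched by symbol to probe sets annotated to exactly 1 gene. Of several probe sets for a gene, the brightest by its 12-array mean was taken. This gave values for 8 of the 9 genes, out of 22180 genes measured; Acsl1, an acyl-CoA synthetase, was not analysed here. All 8 had group means above 4.09, the 40th percentile of all values, below which a value is called near background here.

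RNA of C57BL/6 mice was hybridised to 12 Affymetrix arrays, 3 per group. The 4 groups were adipose progenitor preparations (AP) from perigonadal visceral fat (VAT), AP from inguinal subcutaneous fat (SAT), unfractionated adipose tissue (AT) from VAT, and AT from SAT, all freshly isolated. AP were the stromal vascular cells left after enzymatic dissociation once magnetic beads had removed blood lineages and cells carrying CD31, which marks endothelium. The labels give no genetic change, treatment, age, sex or diet, and each AP preparation came from several mice. The labels call the 3 samples of a group biological replicates without saying which animals gave them, and the p-values measure the spread among those samples. In bulk RNA, fewer cells of a type and less RNA per cell cannot be told apart.

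As background, triglyceride arrives in fat on lipoproteins and is cut in the capillary lumen by lipoprotein lipase, the product of Lpl. Adipocytes make this enzyme, and GPIHBP1 on capillary endothelium carries it to the lumen and holds it there. ANGPTL4 inactivates the enzyme, and the VLDL receptor binds and takes up triglyceride-rich lipoproteins. The fatty acids released enter cells with the help of CD36 and the transport protein FATP1, encoded by Slc27a1, and are bound inside by the fatty acid binding proteins FABP4 and FABP5.

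The promoters of Cd36, the gene with the largest fall in AP, and Vldlr, the gene that went the other way in VAT, are shown because these members stand at the ends of the range. They run from 250 bases before to 50 after a start site, 5′ to 3′ on the gene's strand, and come from RefSeq on build GRCm38.p6. Of the 9 listed genes 4 have an entry there: Cd36, Vldlr, Slc27a1 and Acsl1. Capitals mark matches, on either strand, to AGGTCA (a half-site of nuclear receptors), GGGCGG (a GC box), CCAAT or TATAA.
Cd36, chr5:17835847-17836146, minus strand: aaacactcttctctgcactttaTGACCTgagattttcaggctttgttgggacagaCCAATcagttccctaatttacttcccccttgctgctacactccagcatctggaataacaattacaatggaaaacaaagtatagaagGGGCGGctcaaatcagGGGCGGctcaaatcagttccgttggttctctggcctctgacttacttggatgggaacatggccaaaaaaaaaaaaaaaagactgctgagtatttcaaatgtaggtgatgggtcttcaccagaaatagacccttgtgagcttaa
Vldlr, first start site, chr19:27216234-27216533, plus strand: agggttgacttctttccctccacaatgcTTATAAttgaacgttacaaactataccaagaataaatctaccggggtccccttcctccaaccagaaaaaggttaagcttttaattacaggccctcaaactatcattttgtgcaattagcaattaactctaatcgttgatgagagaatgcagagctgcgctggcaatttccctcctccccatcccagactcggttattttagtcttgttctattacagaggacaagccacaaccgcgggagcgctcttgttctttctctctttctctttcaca
Vldlr, second start site, chr19:27216770-27217069, plus strand: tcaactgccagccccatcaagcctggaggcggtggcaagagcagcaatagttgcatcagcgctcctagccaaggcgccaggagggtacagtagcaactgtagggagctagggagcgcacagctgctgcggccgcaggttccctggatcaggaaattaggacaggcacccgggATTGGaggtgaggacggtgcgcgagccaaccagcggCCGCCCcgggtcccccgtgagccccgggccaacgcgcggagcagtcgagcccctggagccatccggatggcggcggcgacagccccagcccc
The Cd36 window held 1 AGGTCA on the minus strand at position -228 from the start site, 1 CCAAT and 2 GGGCGG. The first Vldlr window held TATAA on each strand in overlapping positions, and the second held 1 CCAAT and 1 GGGCGG, both on the minus strand. Of the 32851 promoters in the table, 16.3% held AGGTCA, 35.7% GGGCGG, 37.4% CCAAT and 24.9% TATAA. These matches describe letters in the windows only.

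AP was compared with AT to see which uptake genes the progenitor preparation carries. Lpl, Gpihbp1, Cd36, Slc27a1, Fabp4 and Fabp5 were lower in AP in both depots, by 1.88 to 11.7 times in VAT and 3.12 to 9.85 times in SAT. Angptl4 and Vldlr behaved otherwise: in SAT neither passed the test, and in VAT Angptl4 fell by a smaller amount while Vldlr rose. In VAT 7 of the 8 genes fell and 1 rose, and for each of the 8 the AP and AT arrays were apart. In SAT 6 fell and 2 did not pass, and those 6 did not overlap. Over all genes, 32.6% were called in VAT (16.8% lower, 15.8% higher) and 32.4% in SAT (16.3% lower, 16.1% higher). Values without overlap were lower for 20.4% of all genes and higher for 20.5% in VAT, and lower for 21.1% and higher for 23.5% in SAT. The median log2 difference of the 8 genes was -2.11 in VAT and -2.02 in SAT, against 0.03 for all genes in each depot. The test was limma's moderated test with Benjamini-Hochberg adjustment over all 22180 genes; genes with an adjusted p under 0.05 are called below.

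**Figure D1:**
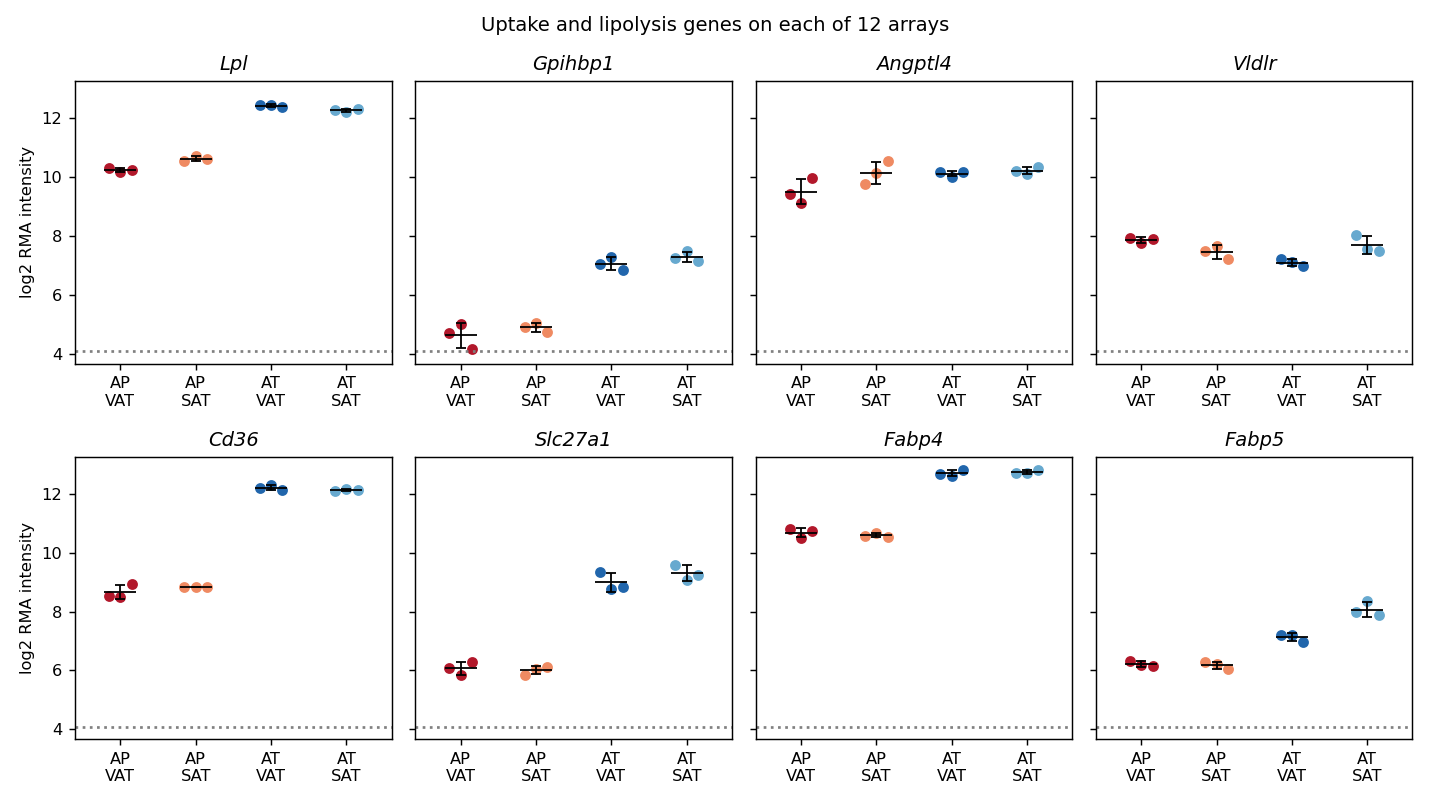
Log2 RMA intensity (y axis) of the 8 measured genes on each array, in AP from VAT, AP from SAT, AT from VAT and AT from SAT; coloured points are the 3 arrays of a group, black bars the mean ± SD, and the dotted line is 4.09, the 40th percentile of all values. Lpl, Gpihbp1, Cd36, Slc27a1, Fabp4 and Fabp5 lie lower in all 6 AP arrays than in all 6 AT arrays, while Angptl4 and Vldlr do not.

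Lpl had log2 intensities of 10.30, 10.18 and 10.25 in AP from VAT, against 12.44, 12.46 and 12.39 in AT from VAT. In SAT it had 10.55, 10.72 and 10.62 in AP, against 12.28, 12.22 and 12.31 in AT. The AP values thus lay far below the AT values in both depots, and the AP values of the depots did not overlap each other. The log2 difference was -2.19 (SE 0.0925, adjusted p = 9.8e-11 by limma) in VAT and -1.64 (SE 0.0925, adjusted p = 2.43e-09) in SAT. On the linear scale Lpl in AP stood at 21.9% of its AT intensity in VAT and 32.1% in SAT. A dimmer Lpl probe set gave -2.25 (SE 0.194) in VAT and -1.57 (SE 0.194) in SAT.

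Gpihbp1, the capillary anchor of the lipase, had 4.71, 4.99 and 4.15 in AP from VAT, against 7.06, 7.27 and 6.85 in AT from VAT. In SAT the values were 4.89, 5.05 and 4.74 in AP, against 7.24, 7.48 and 7.16 in AT. It was the dimmest of the 8 probe sets in AP, near but above background, and replicate 3 of AP from VAT was the lowest array. The log2 difference was -2.44 (SE 0.18, adjusted p = 4.52e-08 by limma) in VAT and -2.40 (SE 0.18, adjusted p = 5.06e-08) in SAT.

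Angptl4, the inhibitor of the lipase, had 9.41, 9.12 and 9.97 in AP from VAT, against 10.18, 10.01 and 10.16 in AT from VAT. In SAT it had 9.78, 10.13 and 10.54 in AP, against 10.20, 10.10 and 10.36 in AT. The AP arrays spread more widely than the AT arrays, and in SAT they lay on both sides of them. The log2 difference was -0.62 (SE 0.198, adjusted p = 0.0258 by limma) in VAT, and this call was lost without replicate 1 or 2 of AP from VAT or replicate 1 or 3 of AT from VAT (adjusted p = 0.0594 to 0.143). In VAT it was also lost when arrays were scaled to housekeeping genes (-0.47, adjusted p = 0.0756). In SAT the difference was -0.07 (95% interval -0.49 to 0.35, adjusted p = 0.846), and 0.11 when replicate 1 of the SAT progenitors was left out. With AP at 65.1% of the AT intensity in VAT and 95.3% in SAT, Angptl4 was the member nearest to its AT intensity in SAT.

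Vldlr, the lipoprotein receptor, had 7.94, 7.75 and 7.89 in AP from VAT, against 7.22, 7.10 and 6.96 in AT from VAT. SAT gave 7.47, 7.67 and 7.21 in AP, against 8.02, 7.55 and 7.49 in AT. All AP arrays were above all AT arrays in VAT, while the groups overlapped in SAT. The log2 difference was 0.77 (SE 0.148, adjusted p = 0.000795 by limma) in VAT, a rise of 1.7 times, and -0.24 (95% interval -0.55 to 0.08, adjusted p = 0.268) in SAT.

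Cd36, the fatty acid receptor, had 8.54, 8.51 and 8.94 in AP from VAT, against 12.19, 12.29 and 12.14 in AT from VAT. In SAT it had 8.82, 8.84 and 8.84 in AP, against 12.10, 12.16 and 12.14 in AT. Its AP arrays from SAT agreed within 0.02, and replicate 3 of AP from VAT was the highest AP array. The fall was 11.7-fold in VAT (log2 difference -3.54, SE 0.114, adjusted p = 4.78e-12 by limma) and 9.85-fold in SAT (-3.30, SE 0.114, adjusted p = 1.02e-11).

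Slc27a1 had 6.09, 5.84 and 6.27 in AP from VAT, against 9.35, 8.77 and 8.85 in AT from VAT. The SAT arrays gave 5.85, 6.04 and 6.13 in AP, against 9.59, 9.06 and 9.25 in AT. AP lay below AT on every array for this gene of a fatty acid transport protein. It fell by 7.59 times in VAT (log2 difference -2.92, SE 0.169, adjusted p = 3.26e-09 by limma) and by 9.8 times in SAT (-3.29, SE 0.169, adjusted p = 7.68e-10).

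Fabp4, the main fatty acid binding protein of adipocytes, had 10.81, 10.51 and 10.74 in AP from VAT, against 12.69, 12.61 and 12.83 in AT from VAT. In SAT it had 10.57, 10.67 and 10.55 in AP, against 12.72, 12.70 and 12.82 in AT. The depots overlapped within each preparation, and AP lay below AT on every array. The log2 difference was -2.02 (SE 0.106, adjusted p = 1.14e-09 by limma) in VAT and -2.15 (SE 0.106, adjusted p = 5.23e-10) in SAT, which left AP at 24.7% and 22.5% of the AT intensity.

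Fabp5, its relative, had 6.32, 6.2 and 6.14 in AP from VAT, against 7.20, 7.22 and 6.98 in AT from VAT. The SAT arrays gave 6.27, 6.22 and 6.05 in AP, against 7.97, 8.37 and 7.87 in AT. AP was lower than AT on every array, and AT from SAT stood above all other groups. The log2 difference was -0.91 (SE 0.131, adjusted p = 5e-05 by limma) in VAT and -1.89 (SE 0.131, adjusted p = 2.22e-08) in SAT.

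**Figure D2:**
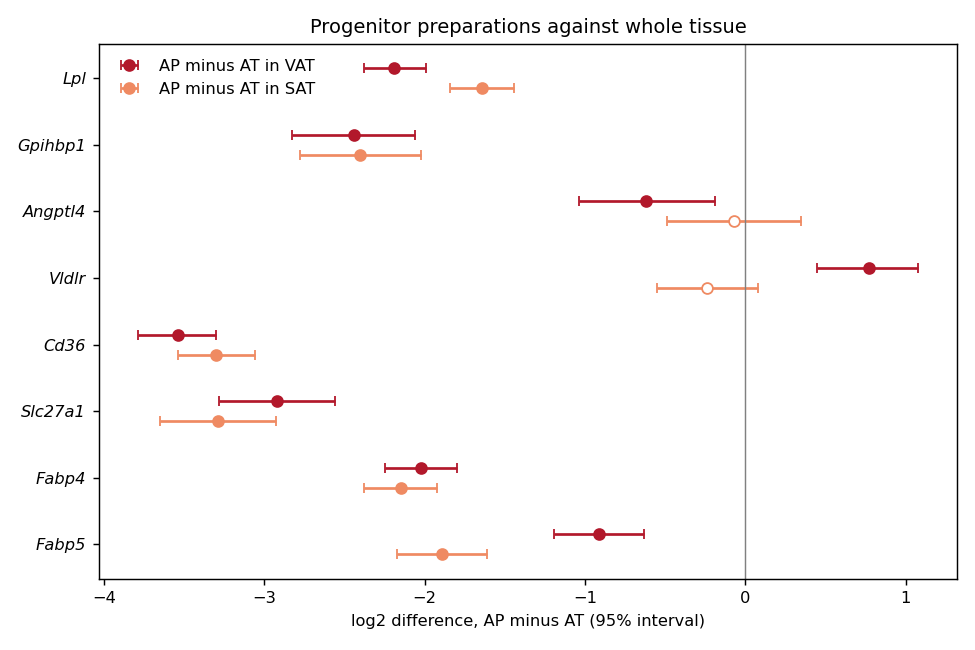
Log2 difference, AP minus AT (x axis), of the 8 genes in VAT and in SAT from the fit over 12 arrays; points are estimates, bars 95% intervals, filled points passed at an adjusted p under 0.05. The falls run from -0.62 (Angptl4) to -3.54 (Cd36) in VAT, where Vldlr is the exception at 0.77; the open points for Angptl4 and Vldlr in SAT did not pass.

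Markers of several cell types moved in the same comparison. Of 9 adipocyte markers, all 9 were lower in AP in each depot, with a median log2 difference of -5.32 in VAT and -5.36 in SAT; adiponectin (Adipoq) was at -5.32 and -5.52. Their mean log2 level per array was 5.93 to 6.32 in AP from VAT and 5.90 to 6.16 in AP from SAT, against 10.97 to 11 in AT from VAT and 10.58 to 10.73 in AT from SAT. No adipocyte marker was near background in AP, though the mean of Lep in AP from SAT, 4.13, stood just above 4.09. In VAT all 9 of these markers fell further than Lpl, Fabp4, Fabp5 and Angptl4, 8 fell further than Gpihbp1 and Slc27a1, and 7 further than Cd36. In SAT 9 fell further than Lpl and Fabp5, 8 further than Fabp4 and Gpihbp1, 7 further than Slc27a1 and 6 further than Cd36.

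Of 12 endothelial markers, 10 were lower and 1 higher in each depot, with a median of -1.55 in VAT and -2.18 in SAT. CD31 itself (Pecam1) was at -2.83 in VAT and -2.97 in SAT, beside -2.44 and -2.40 for Gpihbp1. In VAT 9 of the 12 fell further than Fabp5 and Angptl4, 4 further than Lpl, Fabp4 and Gpihbp1, and 2 further than Cd36 and Slc27a1. In SAT 7 fell further than Lpl and Fabp5, 6 further than Fabp4, 5 further than Gpihbp1 and 3 further than Cd36 and Slc27a1. The mean log2 level of the endothelial list per array was 5.51 to 5.62 in AP from VAT and 5.54 to 5.62 in AP from SAT. In AT it was 7.07 to 7.48 in VAT and 7.43 to 7.58 in SAT. No endothelial marker was near background in AP, though the mean of Cldn5 in AP from VAT, 4.1, stood just above 4.09. Of 10 macrophage markers, a cell type that also makes Lpl, Cd36, Fabp4 and Fabp5, 9 were lower in AP in each depot. None of the macrophage markers was near background in AP, where Cd163 had the lowest mean, 4.26 in AP from VAT. Their mean log2 level per array was 5.19 to 5.37 in AP from VAT and 5.07 to 5.32 in AP from SAT, against 8.02 to 8.09 in AT from VAT and 7.77 to 8.45 in AT from SAT. Beside Vldlr at 0.77 in VAT and -0.24 in SAT, pericyte and smooth muscle markers had medians of 2.24 and 2.19. They were higher in AP for 8 of 8 genes in VAT and 6 of 8 in SAT. Their mean log2 level per array was 9.49 to 9.70 in AP from VAT and 9.31 to 9.43 in AP from SAT, against 7.20 to 7.60 in AT from VAT and 7.55 to 7.61 in AT from SAT. Of 10 progenitor markers, 8 were higher and 1 lower (Cd24a) in AP in VAT, and 9 were higher in SAT (medians 1.10 and 1.28). Their mean log2 level per array was 8.85 to 8.95 in AP from VAT and 9.19 to 9.27 in AP from SAT, against 7.64 to 7.88 in AT from VAT and 7.70 to 8.22 in AT from SAT. All 14 genes of dissociation stress were higher in AP in both depots (medians 4.40 in VAT and 4.91 in SAT). Their mean log2 level per array was 10.47 to 10.64 in AP from VAT and 10.65 to 10.84 in AP from SAT, against 5.98 to 6.12 in AT from VAT and 5.80 to 6.17 in AT from SAT. The part of these cells and of handling in the values of the uptake genes was not tested.

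The unequal changes of pairs of these genes were compared within arrays, which cancels the scaling of each array. The log2 difference of each pair was set between AP and AT, averaged over depots, by a 2-sided exact permutation test within depots (400 permutations, smallest p 0.005), with adjustment over the 4 pairs tested. Lpl fell more than Angptl4, its inhibitor: the change of Lpl minus that of Angptl4 was -1.57 (exact p = 0.005, adjusted p = 0.01), and also -1.57 in each depot alone. Lpl also fell relative to Vldlr (-2.18, exact p = 0.005, adjusted p = 0.01), with -2.95 in VAT and -1.40 in SAT. Gpihbp1 fell more than Lpl: the change of Lpl minus that of Gpihbp1 was 0.51 (exact p = 0.025, adjusted p = 0.025), with 0.26 in VAT and 0.76 in SAT. That call was lost without replicate 3 of AP from VAT (0.39, adjusted p = 0.05). Fabp4 fell more than Fabp5 (-0.68, exact p = 0.015, adjusted p = 0.02) on the brightest probe sets, with -1.11 in VAT and only -0.26 in SAT. The sign turned when the mean of each gene's probe sets was used (0.18, adjusted p = 0.535 by the same test).

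Depot was compared within each preparation. Among AP, Lpl was lower in VAT than in SAT (10.24 ± 0.06 in VAT and 10.63 ± 0.09 in SAT, SD, n = 3 each), a log2 difference of -0.39 (SE 0.0925, adjusted p = 0.0196 by limma). It was the only 1 of the 8 to pass in AP, where 5.64% of all genes did (2.6% lower, 3.03% higher in VAT). The call was lost without replicate 2 or 3 of AP from SAT or replicate 2 of AP from VAT (adjusted p = 0.0624 to 0.108). It was also lost with housekeeping scaling (-0.27, adjusted p = 0.314), with the mean of both probe sets (-0.41, adjusted p = 0.0869) and on the dimmer probe set (-0.44, adjusted p = 0.287). Angptl4 was at -0.65 (95% interval -1.07 to -0.23) and did not pass (adjusted p = 0.0764), though it did when replicate 3 of the VAT group was left out (adjusted p = 0.00972) or replicate 1 of the SAT group (adjusted p = 0.0317). Vldlr was at 0.41 (adjusted p = 0.154) with no overlap between the depots; over all genes 9.87% were higher and 10.5% lower in VAT without overlap. Fabp4, Slc27a1, Cd36 and Gpihbp1 had differences of 0.09, 0.06, -0.17 and -0.28, with 95% intervals inside -0.66 to 0.42.

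In AT, Fabp5 and Vldlr were lower in VAT than in SAT, 2 of the 8 genes, where 4.55% of all genes passed (1.75% lower, 2.8% higher in VAT). Fabp5 was 7.13 ± 0.13 in VAT and 8.07 ± 0.26 in SAT (SD, n = 3 each), a log2 difference of -0.94 (SE 0.131, adjusted p = 0.000443 by limma). Vldlr was 7.09 ± 0.13 in VAT and 7.69 ± 0.29 in SAT, a difference of -0.59 (SE 0.148, adjusted p = 0.0314 by limma). The Vldlr call was lost without replicate 1 of AT from SAT or replicate 2 or 3 of AT from VAT (adjusted p = 0.0701 to 0.156), and when AT was fitted alone (adjusted p = 0.0884). Lpl was higher in VAT on every array, by 0.16 (95% interval -0.04 to 0.36, adjusted p = 0.443), and 10.9% of all genes were higher and 7.26% lower in VAT without overlap. Cd36 and Fabp4, at 0.07 and -0.04, overlapped between the depots and had 95% intervals inside -0.26 to 0.32. Mesothelial markers, of the lining that covers VAT, were higher in VAT for 8 of 8 genes in AP and in AT. Their mean log2 level per array was 7.92 to 8.35 in AP from VAT, against 5.18 to 5.44 in AP from SAT, and 7.57 to 7.85 in AT from VAT, against 4.97 to 5.24 in AT from SAT. Their part in the depot differences was not tested.

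**Figure D3:**
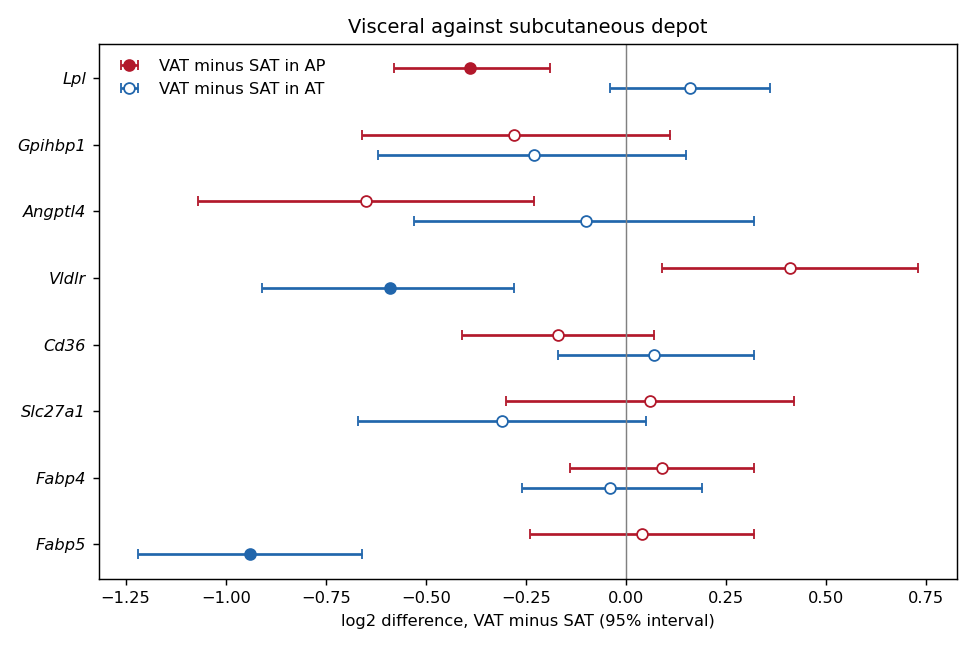
Log2 difference, VAT minus SAT (x axis), of the 8 genes in AP and in AT; points are estimates, bars 95% intervals, filled points passed at an adjusted p under 0.05. Fabp5 and Vldlr sit below 0 in AT (-0.94 and -0.59) but not in AP (0.04 and 0.41), and Lpl sits below 0 in AP (-0.39) but not in AT (0.16).

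The interaction asks whether AP minus AT in VAT differs from AP minus AT in SAT, which is the same number as VAT minus SAT in AP less VAT minus SAT in AT. It was called for 3 of the 8 genes, against 2.15% of all genes (1.16% below 0, 0.987% above 0). For Vldlr it was 1.00 (SE 0.21, adjusted p = 0.0208 by limma): AP minus AT of this gene was 0.77 in VAT and -0.24 in SAT. The call was lost, narrowly, without replicate 1 or 3 of AP from SAT, replicate 1 of AP from VAT or replicate 3 of AT from VAT (adjusted p = 0.0536 to 0.0556). For Fabp5 it was 0.98 (SE 0.185, adjusted p = 0.0115 by limma) and passed with any 1 array left out. For Lpl it was -0.55 (SE 0.131, adjusted p = 0.0427 by limma), the larger fall being in VAT. Of the 12 fits that each left out 1 array, 11 lost the Lpl call (adjusted p = 0.059 to 0.124), the exception being the fit that dropped replicate 3 of AT from SAT. The Lpl call was also lost on the dimmer Lpl probe set (-0.68, adjusted p = 0.28) and under 4 other settings given with the processing alternatives.

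Across the 4 groups the levels ordered the genes into 3 kinds. Cd36, Fabp4, Gpihbp1 and Slc27a1 were high in AT and low in AP, with the depots overlapping in each. Lpl and Fabp5 had the same split with a further step. For Lpl, AT from VAT, AT from SAT, AP from SAT and AP from VAT were each apart from the next. Its step in AT was not called (0.16, adjusted p = 0.443 by limma), and the call of its step in AP was lost under several alternatives. For Fabp5, AT from SAT, AT from VAT and the AP groups were apart in that order. Over all genes, values without overlap between depots were higher in VAT for 10.9% and lower for 7.26% in AT. In AP these shares were 9.87% and 10.5%. Vldlr had its highest mean in AP from VAT, and each group overlapped the next in the order AP from VAT, AT from SAT, AP from SAT and AT from VAT. Angptl4 had its lowest mean in AP from VAT, which lay apart from AT from VAT but overlapped AP from SAT; the other neighbours overlapped.

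Fabp5 was measured by 4 probe sets, and they differed in AP. On the pair 17548238 and 17548717, which gave nearly the same values, AP from VAT had 4.97, 4.56 and 4.87 on the first and 4.96, 4.40 and 4.82 on the second. AP from SAT had 3.73, 3.77 and 3.6 on the first and 3.70, 3.73 and 3.42 on the second, all near background, so differences against this group are fitted values only. On these 2 probe sets AP from VAT stood above AP from SAT without overlap, by a fitted 1.10 and 1.11 (adjusted p = 0.000158 and 0.000427 by limma over all probe sets of 1 gene), against 0.04 on the brightest probe set, 17396056.

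In AT the same pair had 6.83, 6.73 and 6.52 in VAT, against 8.0, 8.16 and 7.64 in SAT on the first, and 6.79, 6.72 and 6.50 in VAT, against 7.93, 8.17 and 7.63 in SAT on the second. The depot difference in AT was thus -1.24 on each of the pair and -1.31 on the third set, 17404073, beside -0.94 on the brightest: all 4 gave lower Fabp5 in AT from VAT than in AT from SAT. AP minus AT was -1.89 and -1.94 on the pair in VAT and -0.73 on 17404073, beside -0.91 on the brightest. In SAT it was -4.23 and -4.29 on the pair and -2.23 on 17404073, beside -1.89. On 17404073 AP from SAT, at a mean of 4.08, was also near background. Its -2.23 and the interactions of 1.5, 2.34 and 2.35 on these 3 probe sets are therefore fitted values only. The interaction of 0.98 on the brightest set rests on group means above 4.09. The AP means of that set, 6.18 in SAT and 6.22 in VAT, stood above those of the other 3 sets (3.62 to 4.8). Whether signal other than Fabp5 entered them was not tested. Which bases each probe set reads is not given in the sources used here, and RefSeq lists a Fabp5 pseudogene, Fabp5l2, so signal from a near copy was not tested.

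**Figure D4:**
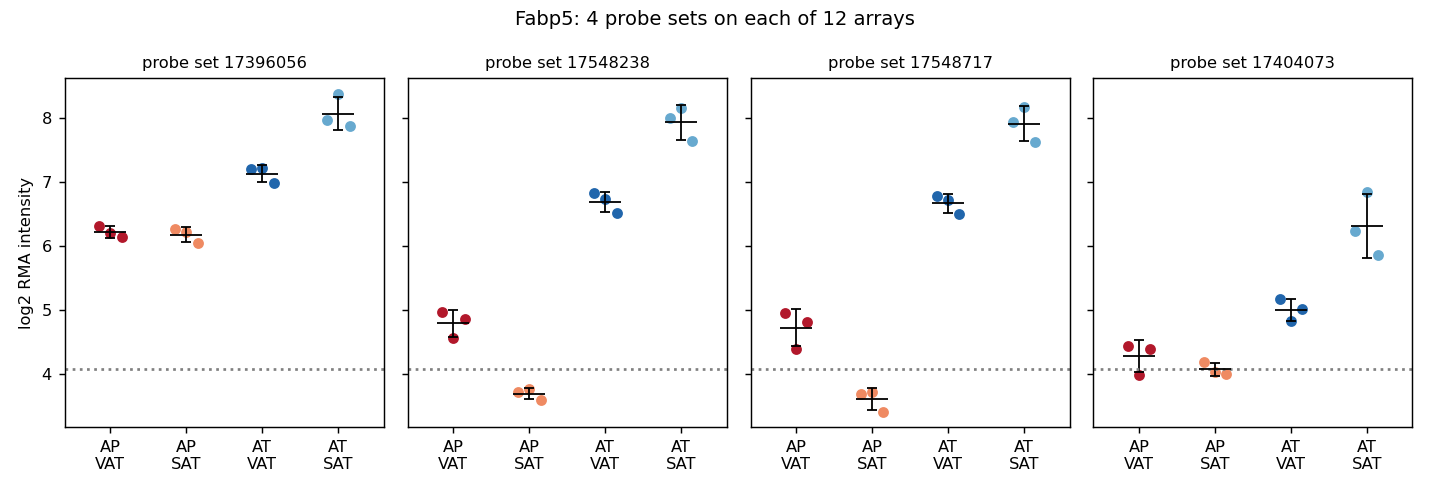
Log2 RMA intensity (y axis) of the 4 Fabp5 probe sets on each array, in AP from VAT, AP from SAT, AT from VAT and AT from SAT; points are arrays, black bars mean ± SD, and the dotted line is 4.09. AT from SAT is the highest group on all 4, while AP from VAT lies above AP from SAT without overlap on 17548238 and 17548717 only.

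Other genes of the same pathway were called in both directions; over all genes, 15.8% were called higher and 16.8% lower in VAT, and 16.1% and 16.3% in SAT. Of 20 measured genes of lipoprotein lipolysis and uptake, 7 were higher and 6 lower in AP in VAT, and likewise 7 and 6 in SAT, with medians of 0.10 and 0.05. Among the largest rises were perlecan (Hspg2, 1.64 in VAT and 1.46 in SAT), a heparan sulfate proteoglycan of basement membranes, and the lipoprotein receptor Lrp1 (1.48 and 1.57). The proprotein convertases Pcsk5 (0.92 and 0.91) and Pcsk6 (0.53 and 1.52) were also higher. The largest falls were those of apolipoprotein C1 (Apoc1, -3.06 in VAT and -3.54 in SAT), the HDL receptor Scarb1 (-2.75 and -2.33), apolipoprotein E (Apoe, -1.14 and -1.58) and the sorting receptor Sorl1 (-2.55 in SAT). Sorl1 fell less in VAT (-0.97), and the interaction was 1.59 (SE 0.22, adjusted p = 0.00133 by limma).

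Of 21 measured genes of fatty acid transport and activation, 3 were higher and 6 lower in AP in VAT, and 4 higher and 4 lower in SAT, with medians of -0.04 and -0.06. The counts of higher genes in both depots, and of lower genes in SAT, are near the shares over all genes. The membrane transporter Slc43a3 had the largest rise, 2.22 in VAT and 2.09 in SAT, followed by the aspartate aminotransferase Got2 (0.92 and 1.33) and the acyl-CoA synthetase Acsbg1 (0.80 and 0.69). The caveolins Cav2 (-3.49 in VAT and -2.93 in SAT) and Cav1 (-1.66 and -1.63), coat proteins of caveolae, and the glycerol channel Aqp7 (-2.87 and -3.41) fell furthest. Of the other transport proteins of the Slc27a family, Slc27a2, Slc27a5 and Slc27a6 were near background in all 4 groups.

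Of 9 nuclear receptors and coactivators that respond to fatty acids or drive their use, 5 were lower and 0 higher in AP in each depot, and 4 did not pass; the medians were -0.50 in VAT and -0.68 in SAT. Pparg, the master regulator of adipocyte genes, was at -2.49 in VAT and -1.86 in SAT, the coactivator Ppargc1a at -1.44 and -2.49, and the receptor Rxrg at -0.86 and -0.68. Ppara, which drives fatty acid oxidation, was at -1.20 in SAT, and at -0.32 in VAT, where it did not pass (adjusted p = 0.264). Among AP, Pparg was lower in VAT than in SAT by the fit (-0.74, SE 0.165, adjusted p = 0.013 by limma), but not when replicate 2 of either AP group was left out (adjusted p = 0.0789 without the VAT array and 0.0648 without the SAT array).

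**Figure D5:**
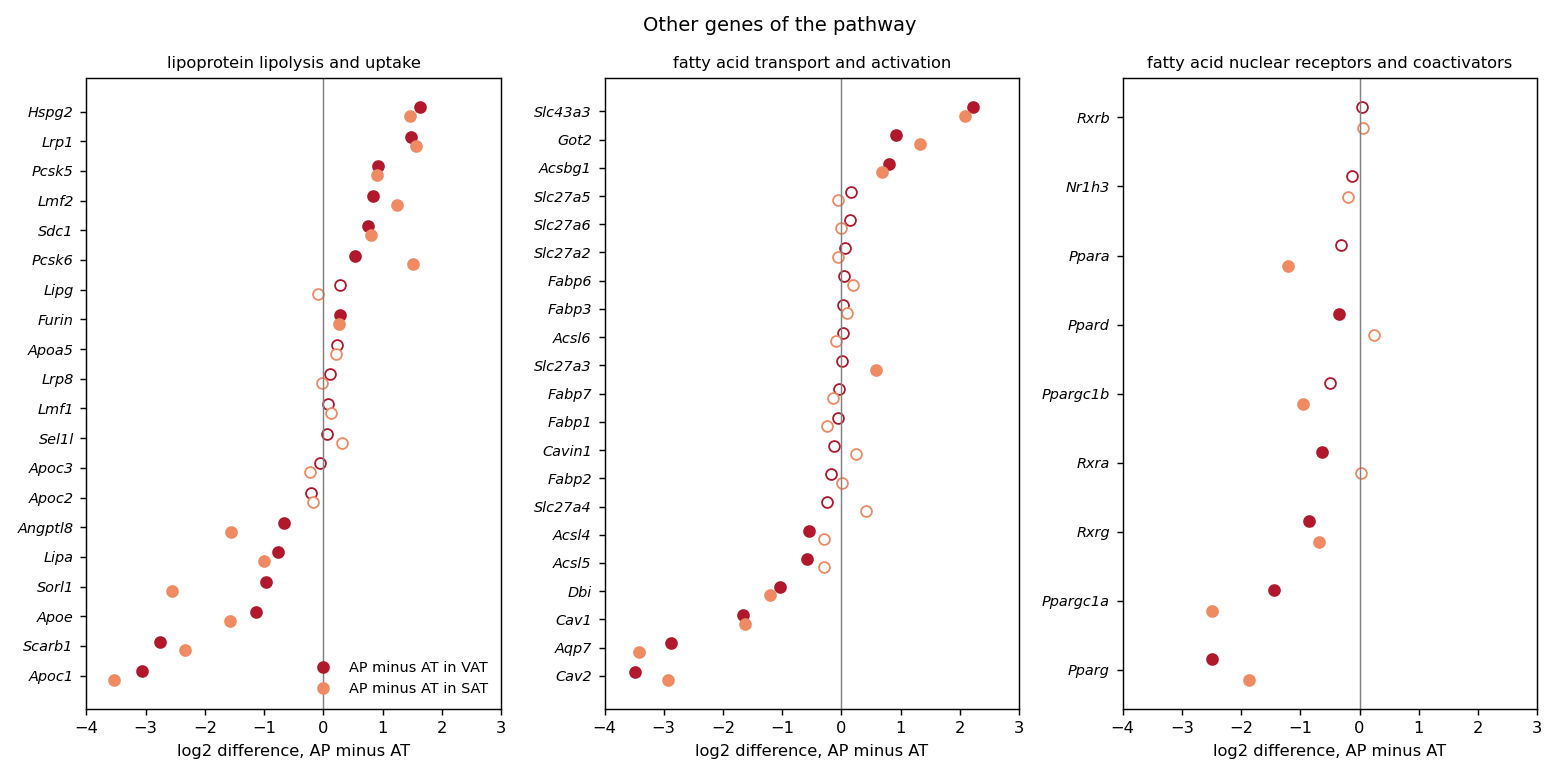
Log2 difference, AP minus AT (x axis), in VAT and in SAT for the other genes of lipoprotein lipolysis and uptake (20 genes), fatty acid transport and activation (21) and nuclear receptors and coactivators (9); filled points passed at an adjusted p under 0.05. Slc43a3 (2.22 in VAT) and Cav2 (-3.49 in VAT) mark the ends of the range in VAT, and no gene of the third list was called higher.

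The genes whose profiles were most like each member's were sought over the 12 arrays, with likeness given as the root-mean-square difference of the centred log2 profiles. Lpl was nearest to the catalase Cat (0.119), the peroxisomal enzyme Hsd17b4 (0.123) and Mpp1 (0.129), and Cat was also nearest to Fabp4 (0.142), followed by Cmbl and Mfng. Gpihbp1 was nearest to Erg (0.184), a transcription factor of endothelium, then to Plaat3 (0.204) and the hormone-sensitive lipase Lipe (0.214). Cd36 was nearest to Acp5 (0.151), the adipogenic factor Cebpa (0.179) and Gpat3 (0.189).

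Slc27a1 was nearest to the mitochondrial pyruvate carrier Mpc1 (0.201), the triglyceride lipase Pnpla2 (0.207) and the citrate carrier Slc25a1 (0.223). Fabp5 was nearest to Lctl (0.154, near background in both AP groups), Adtrp (0.215) and Tcim (0.219), while its nearest member, Fabp4, stood at 0.501. Vldlr was nearest to Sh3kbp1 (0.175), Pald1 (0.185) and Itgad (0.193, near background in all 4 groups), and Angptl4 to Fbh1 (0.201), Ykt6 (0.204) and Pdia6 (0.205). Vldlr and Angptl4 were each other's nearest member, but at 0.602.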

How the data were processed

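The authors deposited log2 intensities, 1 value per probe set and array, made with RMA in Affymetrix Expression Console 1.3.0.187 per the submitters' processing notes; base 2 was taken from the method and the range of 1.69 to 13.48. RMA puts all arrays on 1 distribution (array medians 4.49 to 4.67), and precision is limited by the number of arrays. The annotation library is not given in the sources used here. Of 41345 probe sets, 23521 were annotated to 1 gene, 1814 to several and 16010 to none.

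Groups were fitted in limma 3.58.1 (R 4.3.3), 1 mean per group over 12 arrays, 2-sided, with Benjamini-Hochberg adjustment over 22180 genes per contrast; SE and 95% intervals are those of the moderated fit. Per list and preparation contrast, the pathway genes named are the 3 called ones that rose most and the 3 that fell most, or fewer; similar genes are the 3 nearest, without predicted genes, small RNA or receptors of smell. Sorl1 in VAT and between depots, Pparg between depots, the Slc27a family levels, Pecam1 and Adipoq were named after their values were seen. The members and lists were chosen with earlier results of these data known. A group mean under 4.09 was called near background. The code was tested on simulated data.

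Replicate numbers were not taken to pair the samples, so the main fit used no block. Alternatives were a replicate block, limma's trend and robust options, quantile normalization, scaling to the median of 10 housekeeping genes, leaving out dim genes, the mean of a gene's probe sets, the compared groups alone and leaving out each array. Figures were drawn with matplotlib 3.10.9.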

Additional observations from a re-analysis of the deposited data

Results flagged for a closer look

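The preparation difference, AP minus AT, differed between the depots for 3 of the 8 genes by the interaction term, against 2.15% of all genes. For Vldlr the difference in VAT minus that in SAT was 1.00 on the log2 scale (adjusted p = 0.0208 by limma). AP was above AT on every array in VAT, with overlap in SAT. The Vldlr call was lost in 4 of the 12 fits that each left out 1 array (adjusted p = 0.0536 to 0.0556 by limma). For Fabp5 the interaction was 0.98 (adjusted p = 0.0115 by limma), with a smaller fall in VAT. The other 3 probe sets gave fitted values of 1.5 to 2.35, but AP from SAT was near background on all 3. For Lpl it was -0.55 (adjusted p = 0.0427), a call that was lost in 11 of the 12 fits that each left out 1 array.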

How the results depend on the processing

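The 6 falls of Lpl, Gpihbp1, Cd36, Slc27a1, Fabp4 and Fabp5 in AP, in each depot, and the rise of Vldlr in VAT, kept direction and call under every alternative run. Without 1 array, 6 to 7 members were lower in VAT and 6 in SAT; in AP 0 to 2 and in AT 1 to 2 were lower in VAT than in SAT; the interaction called 1 to 2 up and 0 to 1 down. Members lower in AP from VAT than from SAT (main count 1) were 2 with the replicate block (Angptl4, -0.65, adjusted p = 0.0252) and 0 with housekeeping scaling or the mean of probe sets, which called 1 higher (Fabp5, 0.61, adjusted p = 0.0228). Members lower in AT from VAT (main count 2) were 1 with these groups alone. The downward interaction (main count 1, Lpl) was 0 with the replicate block (adjusted p = 0.0773), quantile normalization (-0.46, adjusted p = 0.0657), housekeeping scaling (-0.27, adjusted p = 0.345) and the mean of probe sets (-0.61, adjusted p = 0.113). Of the 10 housekeeping genes, 3 were called higher and 2 lower in AP in SAT, and 2 higher and 2 lower in VAT. Over all genes, 32.4% were called in SAT and 32.6% in VAT. Housekeeping scaling shifted the median of all genes by 0.14 in VAT and -0.13 in SAT for AP minus AT, by 0.12 in AP and -0.15 in AT between depots, and by 0.28 in the interaction. Under it, uncalled differences changed sign for Cd36 between depots in AT (-0.08) and for the interaction of Cd36 (0.03) and Gpihbp1 (0.23); under quantile normalization Fabp4 did so in AT (0.04). The fall of Fabp4 beyond that of Fabp5 (-0.62 to -0.77 without 1 array) turned to 0.18 with the mean of probe sets. Lpl against Gpihbp1 ran from 0.39 to 0.62 without 1 array. Uncalled values that changed sign without 1 array ran from -0.27 to 0.11 (Angptl4, AP minus AT in SAT), -0.03 to 0.09 (Fabp5) and -0.04 to 0.17 (Slc27a1) between depots in AP, -0.10 to 0.01 (Fabp4 between depots in AT) and -0.23 to 0.19 (Gpihbp1, interaction). The causes were not tested. Same-numbered samples had correlations of deviations of -0.28 to 0.118, and differently numbered ones -0.179 to 0.309, so the numbers were not taken to pair them. Between AP from SAT and AP from VAT the same-numbered values were 0.0205, 0.118 and 0.0867. The differently numbered ones there ran from -0.179 to 0.0835, so pairing of these groups is not settled. The replicate block changed no member's call other than those of Angptl4 and Lpl given above. The Slc27a1 and Acsl1 pair was not run.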

Other observations

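In the wider lists of the pathway a few genes differed between depots. Of 14 calls for depot or interaction followed through the alternatives, 2 held under every one run, and both were of Sorl1, a sorting receptor. It was higher in AP from VAT than in AP from SAT (6.18 ± 0.14 and 5.11 ± 0.13, SD, n = 3 each), by 1.08 on the log2 scale (adjusted p = 0.000365 by limma), and its interaction was 1.59. Sorl1 was singled out after its values were seen. Of 30 calls for AP against AT followed through the alternatives in these lists, all 30 held under every one run. The calls of Pcsk6 and Sorl1 in VAT, and of Pcsk5, Apoe and Rxrg in SAT, were not among those followed.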
